A study of Rattus norvegicus with 18 samples.

Results

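The microRNA (miRNA) profile of uninjured cervical dorsal root ganglia (DRG), where the cell bodies of sensory neurons lie beside the cord, was described from the 6 naive libraries among the 18 small RNA libraries of the study. The members were all listed rat miRNAs of these libraries. Of the 753 listed, 551 had a count in at least 1 naive library and 444 had a count in all 6. The study asked how injury of the corticospinal tract and a neurotrophin vector given into muscle change RNA in these ganglia. All rats were adult Lister Hooded rats, and ganglia of levels C6 to C8 from 1 side of each rat were combined into 1 library. Naive rats had no surgery and no vector. In the groups bPYX+GFP and bPYX+NT3 (6 rats each), both corticospinal tracts had been transected in the medullary pyramids, an AAV1 vector encoding green fluorescent protein or human neurotrophin-3 under the CMV promoter had been injected into forelimb flexor muscles of 1 side a day later, and ganglia were taken 10 weeks after injury. The side taken from naive rats was not given in the sources used here.

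A miRNA is cut from a hairpin precursor whose 5p and 3p arms can each yield a mature strand of about the length of the sequences printed here. The loaded strand guides an Argonaute protein to messenger RNAs mainly through its seed (bases 2 to 8), so miRNAs with one seed share many targets and form a family. A ganglion holds sensory neurons, the satellite glia around them, Schwann cells along their axons, vessels, fibroblasts and blood, and each of these cell types is known for a few miRNAs.

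The mature sequences of the leading miRNAs are printed to show which of them share a seed and which differ by a few bases. They are RefSeq sequences of assembly GRCr8, 5′ to 3′, with the seed in capitals. Of the 753 listed names, 688 matched a RefSeq entry and 65 did not, among them miR-99a-5p and miR-30d-5p.
miR-10a-5p: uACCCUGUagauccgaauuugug
miR-10b-5p: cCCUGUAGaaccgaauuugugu
miR-100-5p: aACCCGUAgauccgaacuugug
miR-99b-5p: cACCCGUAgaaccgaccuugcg
let-7i-5p: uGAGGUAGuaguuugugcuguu
let-7g-5p: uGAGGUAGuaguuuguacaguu
let-7b-5p: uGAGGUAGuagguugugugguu
miR-143-3p: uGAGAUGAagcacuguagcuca
miR-27b-3p: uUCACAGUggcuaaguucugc
miR-22-3p: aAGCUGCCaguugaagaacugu
miR-126a-3p: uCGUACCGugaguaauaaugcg
miR-30a-5p: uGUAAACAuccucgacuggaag
miR-182: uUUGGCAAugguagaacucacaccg
miR-96-5p: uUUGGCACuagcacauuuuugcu
miR-21-5p: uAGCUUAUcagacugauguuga

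Naive libraries held 4.77 ± 0.424 M counts on miRNAs (SD, n = 6; M stands for mega), from 4.12 to 5.19 M, which was 35.0 ± 1.57% of all reads entered in the table. Reads of too low an alignment quality made up 31.4 ± 1.61% and reads ambiguous between features 3.03 ± 0.232%. A share below is the percentage of a library's own miRNA counts. It is a share of reads, since adapter ligation in library preparation favours some sequences and was not corrected. Each library held 495 ± 8.10 miRNAs with a count. For a miRNA at 0, the limit of 3 counts was 0.578 to 0.727 counts per M, for counting error only. Over the 250 miRNAs with at least 100 mean counts, the median Spearman correlation of a library with the other 5 was 0.9893 to 0.9917 for naive 2 to 6. It was 0.9774 for naive 1, the library that stood apart. Naive 1 alone was high in an X-linked miRNA cluster described below. The rat that the study left out of its comparisons as an outlier is this one, since the counts listed for it equal those of naive 1 for every miRNA. It is kept here. Without it the 10 most abundant miRNAs took 69.8% of counts, the 5p share was 76.4% and the median CV beyond counting was 10.7%, as defined below.

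The profile was led by miRNAs of the miR-99/100 and miR-10 families. miR-99a-5p, a miRNA of the miR-99/100 family known for targeting mTOR, had shares from 19.3% in naive 2 to 23.5% in naive 6, with a median of 22.0% and a mean of 21.8 ± 1.45% (SD, n = 6). miR-10a-5p, encoded within a Hox gene cluster, had shares from 14.6% in naive 6 to 16.3% in naive 1, with a mean of 15.7 ± 0.599%. The ranges of these leading miRNAs did not overlap, and miR-99a-5p was the higher in 6 of 6 rats.

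Counts were concentrated on few miRNAs. 5 miRNAs reached 50% of the mean share, 30 reached 90% and 131 reached 99%. The 10 most abundant together took 69.8 ± 0.849% and the 20 most abundant 84.7 ± 0.347% (SD, n = 6). Only 18 miRNAs had a mean share of at least 1% and 62 had at least 0.1%. The effective number of miRNAs, the exponential of the Shannon entropy of the shares, was 25.3 ± 0.675. It was lowest in naive 3 at 24.4 and highest in naive 2 at 26.4.

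**Figure D1:**
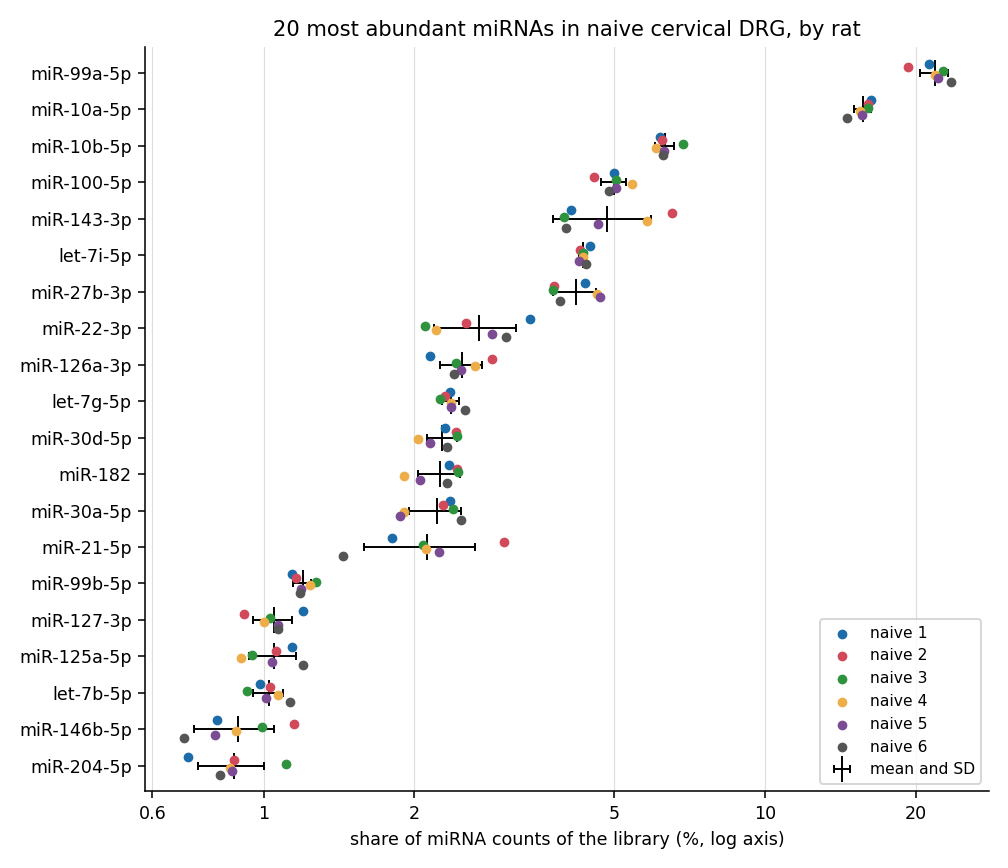
Share of the library's miRNA counts (%, log axis) for the 20 miRNAs of highest mean share in naive cervical DRG. Points are the 6 rats, and black bars give the mean and SD. miR-99a-5p and miR-10a-5p lie above 14% in each rat, miR-143-3p, miR-22-3p and miR-21-5p are spread widely, and let-7i-5p is narrow at 4.25 to 4.47%.

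After miR-99a-5p and miR-10a-5p came miR-10b-5p at 6.32 ± 0.284% and miR-100-5p at 5.00% (means of 6 rats). miR-143-3p, a smooth muscle miRNA, followed at 4.85 ± 1.08%, let-7i-5p, of a family that rises as cells differentiate, at 4.34 ± 0.0788%, and miR-27b-3p at 4.19%. These places were only partly ordered. Neighbours in rank were taken as apart where 6 of 6 rats had the same order and the mean within-rat log2 ratio exceeded its SD, and 5 of 19 neighbouring pairs among the 20 highest were apart. These were miR-99a-5p over miR-10a-5p, miR-10a-5p over miR-10b-5p, miR-10b-5p over miR-100-5p, miR-27b-3p over miR-22-3p and miR-21-5p over miR-99b-5p. miR-10a-5p exceeded miR-10b-5p by a log2 ratio of 1.31 ± 0.07 (SD over rats), while miR-143-3p exceeded let-7i-5p in only 3 of 6 rats.

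From the 8th to the 14th place, mean shares lay between 2.69 and 2.11%, and none of the 6 neighbouring pairs was apart. They belonged to miR-22-3p, miR-126a-3p, let-7g-5p, miR-30d-5p, miR-182, miR-30a-5p and miR-21-5p. miR-21-5p, a miRNA known for rising in nerve injury and inflammation, ranged from 1.44% in naive 6 to 3.02% in naive 2, with a median of 2.09%. miR-22-3p ranged from 2.10% in naive 3 to 3.40% in naive 1. Both therefore crossed most of their neighbours within single rats. The remaining places were taken by miR-99b-5p (1.19%), miR-127-3p (1.05%), from the antisense strand of the imprinted gene Rtl1, miR-125a-5p (1.05%), let-7b-5p (1.03%), miR-146b-5p (0.888%), of a family induced by inflammatory signalling, and miR-204-5p (0.872%), from an intron of the ion channel gene Trpm3.

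Grouped by seed, the 688 matched miRNAs formed 581 families, of which 435 had a count, and the 12 families of highest mean share took 58.7 ± 1.59% of counts. The largest family in this grouping was miR-10a-5p alone. The let-7 family was second, with shares of 7.85 to 8.46% and a mean of 8.10 ± 0.208% over 9 members. let-7i-5p made up 53.6% of it. let-7i-5p and let-7g-5p differ by G17A and U19A (positions from 1 at the 5′ end of let-7i-5p), and let-7g-5p had a mean share of 2.36%. let-7c-5p had 0.251% and miR-98-5p, a member under another name, 0.105%. let-7a-5p and let-7f-5p, often given as leading members, had 0.00382 and 0.00406% here, and both have more than 1 annotated precursor.

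The family of miR-100-5p and miR-99b-5p held 6.19 ± 0.314%, from 5.71% in naive 2 to 6.67% in naive 4. Its members share a seed and differ by A1C, U11A, A16C and U21C, counted from the 5′ end of miR-100-5p. miR-99a-5p had no RefSeq entry to read a seed from. With miR-99a-5p added by its name, the family took 28.0 ± 1.63% and became the largest. Likewise the family led by miR-30a-5p rose from 2.46 ± 0.282 to 4.73 ± 0.422% with miR-30d-5p added by name.

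miR-10a-5p and miR-10b-5p had different seeds as listed, because the listed start of miR-10b-5p lies 2 bases further in. Aligned at that offset, 21 bases could be compared and 1 differed (U12A, counted from the 5′ end of miR-10a-5p). The miR-10b hairpin read from 2 bases earlier carries the miR-10a-5p seed. The counts are per listed feature and do not give the 5′ ends of reads, so the seed in use was not measured. Together the pair took 22.0 ± 0.722% of counts, from 20.9% in naive 6 to 23.0% in naive 3. miR-196 miRNAs, which lie among more posterior Hox genes than the miR-10 genes do, were at 0 to 3 counts in each library.

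Other families were nearly single miRNAs. miR-27b-3p made up 94.8% of its family (4.43 ± 0.431%), with miR-27a-3p at 0.231%. miR-146b-5p made up 81.8% of a family at 1.09 ± 0.160%, with miR-146a-5p at 0.198%. miR-125a-5p made up 99.8% of its family, since miR-125b-5p, which has more than 1 annotated precursor, had 0.00208%.

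Some low values fell on miRNAs with an annotation that overlaps another or has several copies, though miRNAs with neither were also low. Some mature miRNAs overlap another listed mature miRNA on the opposite strand. Pairs that bear on the cell types of the ganglion are printed with their complementary bases in capitals, to show how fully they overlap.
miR-183-5p: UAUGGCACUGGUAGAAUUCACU
miR-3553: cAGUGAAUUCUACCAGUGCCAUA
miR-338-3p: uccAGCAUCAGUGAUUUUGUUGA
miR-3065-5p: UCAACAAAAUCACUGAUGCU
miR-126a-5p: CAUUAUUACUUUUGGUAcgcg
miR-126b: UACCAAAAGUAAUAAUGugcug
let-7e-5p: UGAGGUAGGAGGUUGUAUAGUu
miR-3596c: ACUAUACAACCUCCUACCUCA

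All 8 of these were listed at 0 in all 6 naive libraries. Of the 85 miRNAs with 1 annotated precursor that overlap another listed miRNA, 79 were at 0 in all 6 libraries (92.9%), and the class held 0.00257 ± 0.000806% of counts. Of the 569 miRNAs with 1 precursor and no overlap, 89 were at 0 (15.6%), and they held 73.4 ± 1.52%. The 34 miRNAs with several annotated precursors held 1.39 ± 0.0966%, with 11 at 0. The 65 without a RefSeq entry held 25.3 ± 1.44%, with 23 at 0. The classes account for all 202 miRNAs at 0 in all 6 naive libraries.

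**Figure D2:**
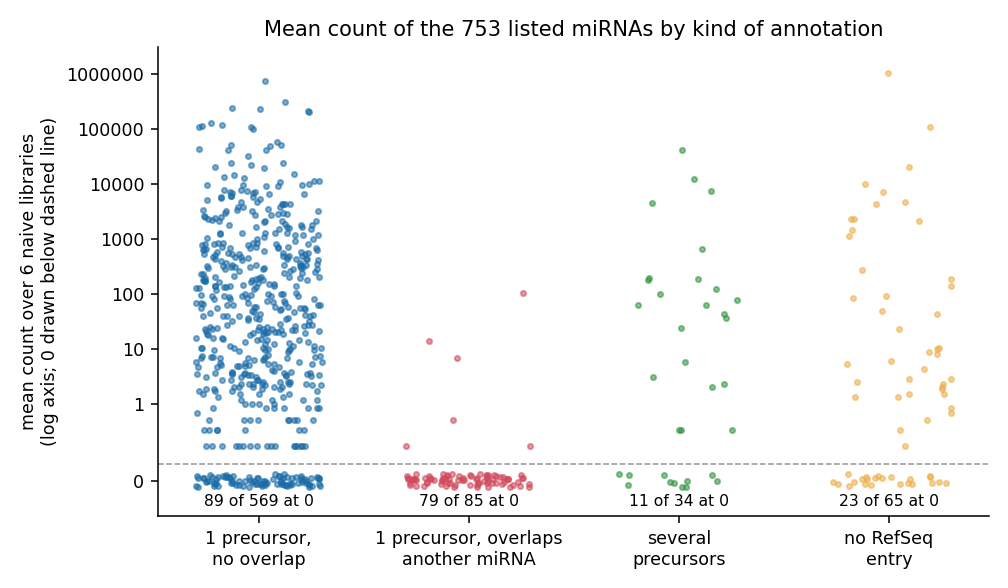
Mean count over the 6 naive libraries (log axis, values of 0 drawn below the dashed line) for each of the 753 listed miRNAs, split by annotation in RefSeq. 79 of 85 miRNAs that overlap another listed miRNA lie at 0, against 89 of 569 without an overlap.

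The same was seen within precursors. Of 30 overlapped miRNAs whose partner arm was free of overlap, 27 were at 0 in all 6 libraries, and for 9 of these the partner arm had at least 100 mean counts. The partner is the other arm of the same precursor, which numbered precursors can share. miR-126a-5p was at 0 beside 118604 mean counts of miR-126a-3p. miR-191a-3p was at 0 beside 31864 of miR-191a-5p, and miR-382-3p at 0 beside 5667 of miR-382-5p. let-7d-5p was an exception, at 104 mean counts beside 7094 of let-7d-3p. HTSeq sets aside reads that fall on more than 1 feature as ambiguous, a total of 0.414 ± 0.0541 M reads per naive library. The part of these reads in the zeros was not tested, and a listed 0 in such a miRNA was not read as absence.

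miRNAs cut from several identical copies were low in part. Of 22 mature arms shared by numbered precursors, 11 had fewer counts than the numbered partner arms together, 10 had more and for 1, miR-466b-5p, both were at 0. miR-24-3p, usually the main strand of its precursors, had 0.333 mean counts, with 1 count in naive 3, 1 in naive 6 and 0 in the others, while its partner miR-24-2-5p had 10801 to 15689 counts. miR-125b-5p had 87 to 110 counts beside a mean of 1617 for miR-125b-1-3p and 3252 for miR-125b-2-3p. In the other direction, miR-128-3p had 29095 to 48718 counts, let-7c-5p a mean of 11922 and miR-92a-3p 7291. Reads that fit several places equally well are among those that receive a low alignment quality. In all, 4.27 ± 0.282 M reads per library were set aside for low alignment quality, and which miRNAs they came from was not tested. The classes rest on annotated precursors only. miR-26a-5p, named here after its values were seen, has 1 annotated precursor and had 1 to 8 counts.

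The muscle miRNA miR-1 is listed under names of near-identical sequence. miR-1-3p overlaps miR-3571 and was at 0, while miR-1b had 36061 to 48177 counts and a mean share of 0.847 ± 0.0685%. Both were singled out after their values were seen, and their sequences differ by A17G, counted from the 5′ end of miR-1b. Which of these sequences the reads held was not tested.
miR-1b: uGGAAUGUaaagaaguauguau
miR-1-3p: uGGAAUGUaaagaaguguguau

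The 5p arm carried most counts. In naive libraries 5p arms held 75.2% of counts in naive 2 to 78.7% in naive 3, with a mean of 76.4 ± 1.29% (SD, n = 6), though 349 listed miRNAs were 5p and 383 were 3p. miR-182, whose name gives no arm, was counted as 5p. Its RefSeq hairpin stops 3 bases after it and does not show the arm, but 18 bases match miR-183-5p of the same cluster in ungapped alignment, against 8 for miR-183-3p. Of the 20 most abundant miRNAs 15 were 5p and 5 were 3p. The excess rested on a few miRNAs. Without miR-99a-5p and miR-10a-5p the 5p share was 62.2 ± 1.60%, and among miRNAs with at least 100 mean counts 125 were 5p and 125 were 3p.

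Arm use was measured in 131 precursors with both arms listed, 1 annotated precursor, no overlap and at least 100 mean counts over both arms. In 70 the 5p arm was the higher in 6 of 6 rats, in 57 the 3p arm was, and in 4 the higher arm differed between rats. The median share of the lower arm was 2.96%. It was under 1% in 46 precursors, under 10% in 92 and at least 25% in 21.

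**Figure D3:**
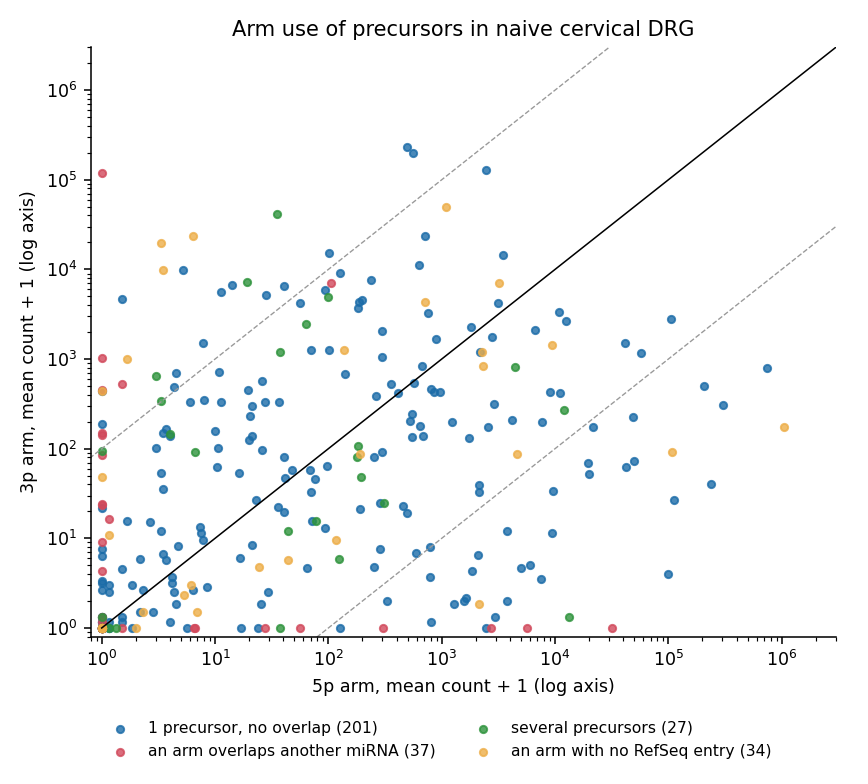
Mean count plus 1 of the 3p arm (vertical) and the 5p arm (horizontal), on log axes, for precursors with both arms listed, coloured by annotation, with the number of precursors in the legend. The solid line marks equal arms and the dashed lines a 100-fold difference. miR-10a and miR-10b lie below the lower dashed line and miR-143 and miR-27b above the upper one, while most overlapped arms lie at 0 counts on an axis, with let-7d an exception.

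The 10 of these 131 precursors with the highest summed counts did not include miR-99a, miR-126a and miR-30d, which had an overlapped or unmatched arm. Among the 10, the lower arm's share was 0.105% in miR-10a, 0.102% in miR-10b, 0.0165% in miR-100, 0.237% in let-7i and 0.0230% in let-7g. The 3p arm prevailed in miR-143, miR-27b and miR-22. Their 5p shares were 0.216 ± 0.0327%, 0.277 ± 0.0261% and 1.95 ± 0.537%. In miR-22 this share ranged from 1.19 to 2.58%. miR-30a was the least one-sided of the 10, with 2.57% of its counts on the 3p arm, which is itself loaded and carries another seed. miR-21 had 99968 mean counts on 5p and 3.00 on 3p.

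The most 3p-sided of the 131 precursors were miR-133b and miR-741, whose 5p arms were at 0 in all 6 libraries. Then came miR-101b (0.0106% on 5p), miR-381 (0.0425%) and miR-652 (0.184%). miR-381, of the imprinted Dlk1-Dio3 locus, had 9746 mean counts on 3p and 4.17 on 5p. miR-133b and miR-741 had only 190 and 434 mean counts in all, so their 5p shares are less finely bounded, and the counts of miR-741 came mostly from naive 1. miR-741 reached the minimum of 100 mean counts only through that library.

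The precursors nearest to equal arms were miR-3068, miR-667, miR-1843b, miR-483 and miR-330. In miR-3068 the 5p share was 49.6 ± 3.25%, with 45.5% at the lowest, and 5p was the higher arm in 3 of 6 rats. miR-667, from the Dlk1-Dio3 locus, had 51.4 ± 3.49% on 5p and was 5p-led in 4 of 6 rats. miR-1843b had 54.2 ± 4.65% and miR-483, from an intron of the growth factor gene Igf2, 45.2 ± 4.34%. These 4 were the precursors whose higher arm differed between rats. In miR-330, at 44.6 ± 4.04%, 3p was the higher arm in 6 of 6 rats.

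miRNAs associated with the cells of the ganglion were summed in lists written from general knowledge. In bulk RNA, fewer cells of a type and less RNA per cell cannot be told apart. The miR-183, miR-96 and miR-182 cluster, known for sensory neurons and other sense cells, was present in each library. No other tissue was at hand to compare it with. Its list held 2.32% of counts in naive 4 to 2.89% in naive 3, with a median of 2.76% and a mean of 2.67 ± 0.233%. miR-182 had 97298 to 119937 counts and made up most of it. miR-96-5p, whose seed differs from that of miR-182 in the last base, had 16997 to 21987 counts and a share of 0.417 ± 0.0241%. miR-183-3p had 121 to 156 counts, and miR-183-5p, usually the main strand, was among the overlapped miRNAs at 0.

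The list of 16 neuronal miRNAs held 1.06 ± 0.108%, from 0.907% in naive 2 to 1.21% in naive 6, and 8 of its members had at least 100 mean counts. miR-128-3p, a miRNA of neurons throughout the brain, had 0.855 ± 0.109% and carried most of the sum. It has several annotated precursors, and with all such miRNAs left out of the counts the list held 0.105%. miR-138-5p (4404 mean counts), miR-384-5p (2180) and miR-137-3p (1262) followed, then miR-129-2-3p (844), miR-129-1-3p (367), miR-132-3p (179), which is induced by neuronal activity, and miR-7a-5p (177). miR-124-3p, the most brain-enriched of the list, had 0 to 5 counts, and miR-9a-5p 0 to 1. miR-9a-5p has several precursors and an overlap. miR-124-3p had no RefSeq entry, so its precursors and overlaps were not checked. The other 6 had 0 to 53.0 mean counts.

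The list of 9 glial miRNAs held 0.924 ± 0.137%, from 0.751% in naive 1 to 1.17% in naive 3. miR-204-5p made up nearly all of it with 30911 to 54570 counts, beside 1496 mean counts of miR-204-3p and 805 of miR-211-5p, which shares its seed. miR-219a-1-3p had 146 mean counts. miR-338-3p, known for myelinating glia, miR-338-5p and miR-219a-2-3p were overlapped miRNAs at 0. miR-219a-5p and miR-211-3p had at most 5 counts in a library. The list therefore rested on miR-204 and miR-211, which other cell types also hold.
miR-204-5p: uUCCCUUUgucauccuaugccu
miR-128-3p: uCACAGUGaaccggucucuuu

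Vessel miRNAs were abundant. The smooth muscle and pericyte list, miR-143 and miR-145 with both arms, held 4.12% in naive 3 to 6.82% in naive 2, with a median of 4.56% and a mean of 5.05 ± 1.11%. Naive 2 and naive 4 were high at 6.82 and 6.00%, and the other 4 rats lay between 4.12 and 4.83%. All 4 members were highest in naive 2. miR-145-5p had 5412 to 9004 counts and miR-145-3p 1527 to 2427, while miR-143-5p had 368 to 697. Endothelial miR-126a-3p, from an intron of Egfl7, had 2.49 ± 0.238%, lowest in naive 1 at 2.15% and highest in naive 2 at 2.85%, and the other 2 members of its list were overlapped miRNAs at 0. The fibroblast list held 0.188 ± 0.0299% and was highest in naive 2 at 0.241%. miR-199a-5p had 7665 mean counts, miR-214-3p 1032 and miR-199a-3p 199.

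Blood miRNAs were low and varied between rats. The erythroid list held 0.0362 ± 0.0141%, nearly all of it miR-451-5p, a red cell miRNA. miR-451-5p had 579 counts in naive 6 and 1278 to 2461 in the other 5 rats, a 4.25-fold range of shares. The leukocyte list held 0.338 ± 0.0701%, from 0.269% in naive 3 to 0.453% in naive 4. miR-146a-5p, which other cells also express, took most of it at 0.198 ± 0.0100% and varied little. The miRNAs more particular to blood cells varied more. The shares of miR-142-3p, miR-142-5p, miR-150-5p and miR-155-5p were highest in naive 4, and those of both arms of miR-223 in naive 2. miR-150-5p, of lymphocytes, had 8883 counts in naive 4, 5705 in naive 1 and 2924 to 3893 in the other 4. miR-142-5p, found in most blood cells, had 1386 counts in naive 4, 929 in naive 1 and 312 to 614 in the rest. miR-223-3p, of myeloid cells, had 479 to 936 counts, and miR-155-5p, induced in activated leukocytes, 143 to 379. The erythroid list did not share this order, since naive 3 was its highest library and the lowest for leukocytes.

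**Figure D4:**
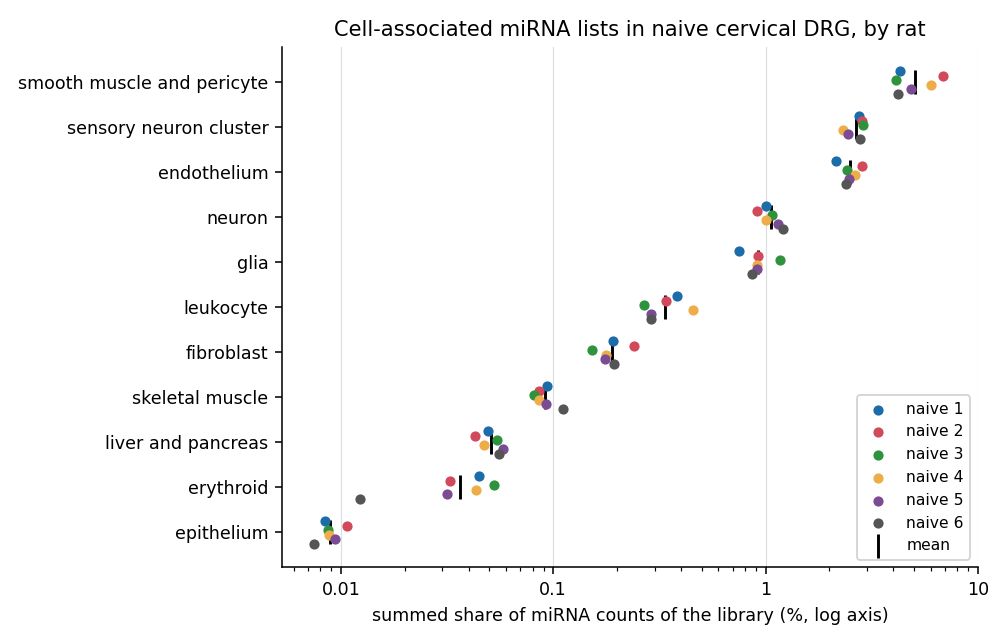
Summed share of the library's miRNA counts (%, log axis) for 11 cell-associated lists in naive cervical DRG. Points are the 6 rats and black bars the means. The smooth muscle and pericyte list lies highest at 4.12 to 6.82%, and the erythroid list is the most spread, with naive 6 at 0.0123%.

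Of the lists of tissues outside the ganglion, the skeletal muscle list held 0.0914 ± 0.0105%, mostly miR-499-5p (3735 mean counts), with miR-206-3p at 438 and miR-133b-3p at 190. miR-1-3p and miR-133a-3p, its defining members, were overlapped miRNAs at 0. miR-1b, which is 1 base from miR-1-3p, was not on this list. With miR-1b added, a choice made after its values were seen, the list held 0.938 ± 0.0750% and was led by miR-1b. The epithelial list held 0.00892 ± 0.00109%, with miR-205 at 319 mean counts and each other member at 83.8 or less. The liver and pancreas list held 0.0511 ± 0.00579%, with miR-217-5p at 1839 and miR-216b-5p at 588 mean counts, while liver miR-122-5p was an overlapped miRNA at 0. The imprinted Dlk1-Dio3 locus, counted over 86 listed miRNAs, held 4.23 ± 0.238%, from 3.86% in naive 2 to 4.47% in naive 5.

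The X-linked cluster from Mir743a to Mir465 held 0.104% of counts in naive 1 and 0.000412 to 0.00138% in the other 5 rats. Its mean was 0.0182 ± 0.0423% with naive 1 and 0.000907 ± 0.000364% without it. miR-741-3p had 2517 counts in naive 1 and 4 to 29 in the others. A single high rat was also seen in bPYX+GFP, where replicate 4 held 0.0191% and the other 5 held 0.000569 to 0.000997%. In bPYX+NT3, replicate 5 held 0.00263% and the other 5 held 0.000437 to 0.00106%.

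The spread between rats was larger than counting error in most abundant miRNAs. Over the 250 miRNAs with at least 100 mean counts, the median coefficient of variation (CV) of the share was 11.5%, against 3.29% from counting alone, and the median CV beyond counting was 10.6%, with 5.03% at the 10th and 19.4% at the 90th percentile. The median was 16.8% as edgeR's biological CV, which draws each miRNA toward a value shared by all. The median CV beyond counting was 10.3% for miRNAs of 100 to 1000 mean counts, 11.3% for 1000 to 10000 and 9.56% above 10000. Above 10000 counts the counting part was 0.488%.

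The 8 miRNAs of largest CV beyond counting were 2 of the X-linked cluster, 4 of the leukocyte list, miR-451-5p and miR-206-3p. The leukocyte list holds 7 of the 250, and miR-142-3p and miR-142-5p are arms of 1 precursor. miR-741-3p and miR-871-3p had 236 and 234%, both high in naive 1 alone. They reached 100 mean counts only through that library, so a large CV was fixed by the minimum. miR-142-3p had 58.7%, miR-142-5p 58.6%, miR-150-5p 47.6%, miR-451-5p 38.9% and miR-223-5p 33.8%. miR-206-3p, of skeletal muscle, had 32.7%, with 301 counts in naive 3 and 581 in naive 2.

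The steadiest miRNAs included let-7i-5p, which at 4.25 to 4.47% had a CV beyond counting of 1.80%. For let-7b-3p, miR-27b-5p, miR-582-3p and miR-301a-5p the CV did not exceed counting error, at mean counts of 224, 552, 228 and 116. Their biological CVs from edgeR were 18.3, 15.4, 18.5 and 21.0%, so on that measure they did not stand out as steady. The other 3 of the 8 smallest were miR-487b-3p (3.24%), miR-193b-3p (3.39%) and miR-674-5p (3.56%). The CV of a low miRNA in 6 rats is itself imprecise, and a value of 0 shows only that the spread was within counting error.

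By list, the median CV beyond counting was 33.8% for the 7 leukocyte miRNAs of at least 100 mean counts, 24.8% for the 4 smooth muscle miRNAs, 15.0% for the 4 glial, 13.0% for the 8 neuronal, 9.72% for the 48 of the Dlk1-Dio3 locus and 7.44% for the 3 of the sensory neuron cluster, against 10.6% over all 250. Of the 250, naive 6 was highest in 57 and naive 3 lowest in 63, and no rat was highest in fewer than 34.

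**Figure D5:**
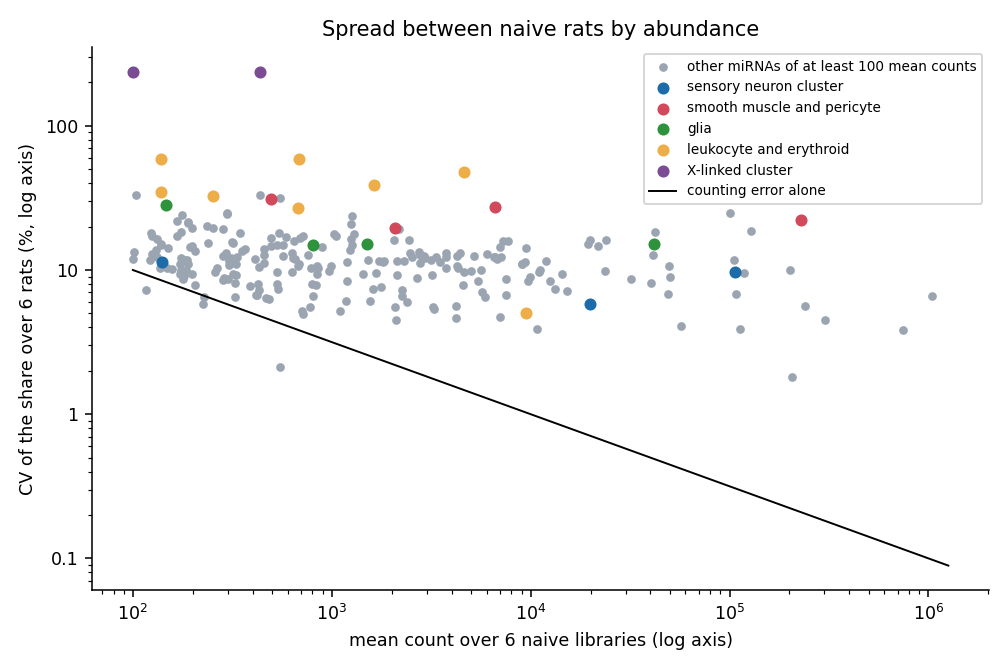
CV of the share over the 6 naive rats (%, log axis) against mean count (log axis) for the 250 miRNAs of at least 100 mean counts, with members of 6 lists coloured. The line gives the CV from counting alone. Most miRNAs lie above it, with a median CV of 11.5%, and blood miRNAs and the X-linked pair lie highest.

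3 properties of whole libraries were compared with the injured groups by exact permutation of the 12 libraries of each comparison (two-sided, all splits, smallest possible p 0.00216, Benjamini-Hochberg over 6 tests). None passed an adjusted p of 0.05. The 5p share was 76.3 ± 0.997% in bPYX+GFP (exact p = 0.898, adjusted 0.898) and 75.0 ± 2.59% in bPYX+NT3 (exact p = 0.275, adjusted 0.808), where 4 of 6 rats lay below the naive mean of 76.4%. The effective number of miRNAs was 25.4 ± 1.21 in bPYX+GFP (exact p = 0.874, adjusted 0.898) and 26.4 ± 2.08 in bPYX+NT3 (exact p = 0.268, adjusted 0.808), against 25.3 in naive rats. The share on miRNAs with several precursors was 1.36 ± 0.0819% and 1.35 ± 0.0642%, against 1.39% in naive rats (exact p = 0.539 and 0.439, both adjusted 0.808). These tests do not show that the groups are alike, and both use the same naive libraries.

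Shares or CVs of some lists in the injured groups are given side by side with those of naive rats and were not tested. The sensory neuron cluster held 3.07 ± 0.260% in bPYX+GFP and 3.11 ± 0.231% in bPYX+NT3, against 2.67 ± 0.233% in naive rats. The glial list held 0.929 ± 0.0460 and 0.823 ± 0.151%, against 0.924 ± 0.137%. The erythroid list again varied most of the cell lists, with a CV of 38.2% in bPYX+GFP and 66.0% in bPYX+NT3, against 39.1% in naive rats. The smooth muscle list had a CV of 5.89% in bPYX+GFP, 18.2% in bPYX+NT3 and 22.1% in naive rats. The list of Hox cluster miRNAs (miR-10 and miR-196) had its lowest CV in naive rats, at 3.27%. Its CVs were 8.36% in bPYX+GFP and 9.22% in bPYX+NT3. Its shares were 23.7 ± 1.98% in bPYX+GFP and 23.4 ± 2.16% in bPYX+NT3, against 22.0 ± 0.722% in naive rats.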

How the data were processed

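The values used were the raw read counts per mature miRNA that the authors deposited. Per the submitters' notes and the study's methods, small RNA libraries (NEBNext kit, single-end reads, no molecular identifiers stated) were trimmed, aligned with Bowtie2 to Rnor_5.0 and counted with HTSeq. Versions and the strand setting of the counting were not given in the sources used here. The 5 totals of reads given to no miRNA were left out of library sizes.

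Shares, CVs and exact permutation tests were computed in Python 3.11.15. The CV beyond counting was the square root of the squared CV minus 1 over the mean count. TMM factors and the biological CV came from edgeR 4.0.16 in R 4.3.3. The permutation test and CV estimates were tested on simulated data. Seeds, precursors and overlaps (at least 1 base) were taken from RefSeq sequences of GRCr8, whose coordinates are not given because the counts use another build. Arms came from names or from the place in the hairpin, and for miR-182 from its likeness to miR-183-5p.

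Named miRNAs were the 20 of highest share, the 12 leading seed families, the 10 most abundant, 5 most 3p-sided and 5 most equal precursors and those whose higher arm differed between rats, list members with at least 100 mean counts, the 8 largest and 8 smallest CVs beyond counting, and values far from the other rats. Precursors with an overlapped or unmatched arm were set apart in arm use. Members, lists and tests were chosen with earlier results of these data known. Libraries are separate rats. Alternatives were a detection filter of more than 10 counts, leaving out miRNAs of several annotated precursors, a higher count minimum, other scalings, leaving out miR-99a-5p and miR-10a-5p, a replicate block and leaving out each rat. Removing overlapped miRNAs, adding unmatched names to families, edgeR's biological CV, the arm of miR-182 from its hairpin and miR-1b on the muscle list were added after seeing the data.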

Additional observations from a re-analysis of the deposited data

Results flagged for a closer look

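In 121 groups of 6 naive values, each was examined for a rat whose gap to the nearest other rat was large against the whole range. 9 values stood out, where about 1 in 20 groups, 6.05 here, would do so by chance, and several of the 9 are not independent.

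Naive 1 stood out in the X-linked cluster from Mir743a to Mir465, at 0.104% of counts against 0.000907 ± 0.000364% in the other 5 rats (SD). Its members miR-741-3p, at 0.0575% against 0.000364 ± 0.000245%, and miR-871-3p, at 0.0133% against 9.63e-05 ± 5.28e-05%, stood out with it. Both reached the minimum of 100 mean counts only through naive 1, so their high value there was fixed by that choice and adds no separate evidence.

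Naive 2 stood out in miR-145-5p, at 0.218% against 0.127 ± 0.0121%, and in miR-143-5p, at 0.0169% against 0.00925 ± 0.00106%. These belong to neighbouring precursors of the smooth muscle list.

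Naive 3 stood out in miR-10b-5p, at 6.87% against 6.21 ± 0.0865%, which is also the share of its seed family since miR-10b-5p is its only member. The 5p share of the miR-10b precursor was highest in the same rat, though all 6 rats had 99.9%. Naive 3 also stood out in glial miR-211-5p, at 0.0216% against 0.0158 ± 0.000906%.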

How the results depend on the processing

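Leaving out each naive rat in turn kept the share of the 10 most abundant miRNAs at 69.5 to 70.0%, the naive 5p share at 75.9 to 76.6%, the effective number at 25.1 to 25.5 and the median CV beyond counting at 9.83 to 11.0%. In the comparisons with bPYX+GFP, which passed no test, leaving out 1 rat of either group moved the difference in 5p share between -0.333 and 0.381 percentage points, in effective number between -0.345 and 0.355 and in the share on miRNAs with several precursors between -0.0604 and 0.00128 percentage points. The signs turned without naive replicate 3 (0.381 for 5p, -0.0753 for effective number), bPYX+GFP replicate 5 (0.251, -0.345) and naive replicate 6 (0.0176 for 5p, 0.00128 for the share). For bPYX+NT3 the same differences ran from -1.97 to -0.602, 0.508 to 1.78 and -0.0632 to -0.00595, with no change of sign and no test passed. The shares of the X-linked cluster ranged from 0.000907% without naive 1 to 0.0217%. Under the filter of more than 10 counts in each naive library, the share of this cluster was 0. With miRNAs of several annotated precursors left out, the 10 most abundant took 70.7%, the effective number was 24.2 and the neuron list fell to 0.105%, having lost miR-128-3p, miR-138-5p and others with several precursors. Without miR-99a-5p and miR-10a-5p, the differences for bPYX+GFP and bPYX+NT3 were -0.512 and -1.32 points in 5p share, 1.04 and 0.324 in effective number and -0.0357 and -0.109 points in the share on several precursors, with no test passed. With miR-182 as 3p, from its place in the hairpin, the naive 5p share was 74.1%, and the differences from naive were -0.458 and -1.84 points (adjusted 0.647 in both exact tests). With miR-1b the muscle list held 0.938%. The median CV was 16.8% as edgeR's biological CV. With naive replicates paired with same-numbered injured ones (replicate block), differences in 5p share were -0.0863 and -1.41 percentage points, equal to the unpaired ones by construction, with adjusted exact p of 0.750 to 1.00 over the 6 tests. Correlations of same-numbered deviations ran from -0.152 to 0.489 for bPYX+GFP and -0.504 to 0.413 for bPYX+NT3. The same number gave the best match in 2 of 6 cases in each group. With so few pairs these values do not settle whether the numbers pair the samples. Over all alternatives of the 6 tests, no adjusted p was under 0.0909. Thinned to the depth of the smallest naive library, a library was expected to hold 490 ± 9.45 miRNAs with a count, against 495 ± 8.10 unthinned. The effect of depth on shares, arm use and CVs was not tested.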

Other observations

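Hairpins that lie close together in the genome are often cut from one transcript, and their mature miRNAs had unequal counts. Hairpins within 10 kb of each other in RefSeq of GRCr8 were grouped, and the leading arm of each hairpin was used where it had at least 100 mean counts, 1 precursor and no overlap. Over 18 groups with at least 2 such hairpins, the ratio of the highest to the lowest mean count had a median of 8.77-fold, from 1.29-fold for miR-341 and miR-370 upwards. The group of miR-741-3p and miR-871-3p, at 4.32-fold, met the minimum only through naive 1. miR-143-3p and miR-145-5p differed 34.5-fold, miR-27b-3p and miR-23b-3p 13.2-fold, and miR-222 and miR-221 1.35-fold. In the group that holds miR-24-2, miR-27a and miR-23a the ratio was 2.13-fold. There miR-24-2 was represented by miR-24-2-5p, since miR-24-3p has several annotated precursors and had 0.333 mean counts. In the group from miR-379 to miR-410, the 25 hairpins that met the minimum differed by up to 157-fold, from 21811 to 139 mean counts. Hairpins of this group under the minimum, such as miR-410 (34.8 for its leading arm) and miR-668 (62.8), were left out, so the minimum limits such ratios. The ratios of 765-fold in the miR-182 group and 382-fold in the miR-99b group rest on miR-183 and let-7e, whose 5p arms are overlapped miRNAs at 0. Counts of different sequences also differ in how well they ligate to adapters, and the part of this in the ratios was not tested.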
